A study of Mus musculus with 24 samples.

Results

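Aminoacyl-tRNA synthetases are the enzymes that join each amino acid to its own transfer RNA, the step that fixes the meaning of the genetic code. Mouse cells use separate sets in the cytosol and in the mitochondria, and both sets are encoded by nuclear genes. The genes described here were taken by symbol, but the family was chosen with earlier results of these data known. They are 35 of the 24015 gene symbols in the count table, 20 cytosolic and 15 mitochondrial (symbols ending in 2). Lars2 is left out by the rule of selection. All 35 passed the filter on low counts in each comparison. Several cytosolic enzymes sit together in a multisynthetase complex held by scaffold proteins, and a subset is known as targets of ATF4, the transcription factor of the integrated stress response that raises amino acid uptake, synthesis and tRNA charging. Gars and Kars each also supply the mitochondrial enzyme for their amino acid, and were counted as cytosolic.

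The samples were livers of female B6C3F1 mice, 5 to 6 weeks old on purchase, given corn oil alone by oral gavage (control) or furan in the same oil, dosed daily for 21 days at 8 mg per kg of body weight. Furan is a heat-formed food contaminant that is toxic to rodent liver, and tissue was taken 4 h after the last dose. Pieces of the same 8 livers, from 4 control animals (02, 03, 04 and 06) and 4 furan animals (41, 42, 43 and 44), were snap frozen, fixed in formalin for 18 h, or fixed in formalin for 3 weeks, and fixed pieces were embedded in paraffin (FFPE). This gave 6 groups of 4 RNA sequencing libraries, made from total RNA after removal of ribosomal RNA. Fixed and frozen RNA also differed in extraction kit and in RNA integrity number (above 8.9 frozen, 1.3 to 2.4 fixed), and the 3-week tissue used 2 sections where the 18 h tissue used 1. Duration of fixation, kit, input, RNA integrity and the piece of liver therefore cannot be told apart.

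Total counts per library were 37978435 to 49326373 in frozen tissue, 22889146 to 28054631 after 18 h and 5560002 to 11019297 after 3 weeks of fixation. Levels are counts-per-million values (CPM) scaled with TMM over all 24 libraries. Differences are log2 fold changes ± SE from edgeR's quasi-likelihood test, called at a Benjamini-Hochberg adjusted p below 0.05 over all genes tested. The SE of a log2 fold change was computed from the estimate and the F statistic of its test. The 95% confidence intervals in the figures are normal approximations from this SE, and so are narrower than the test itself would give. The hepatocyte markers Alb, Apoa1, Ttr, Apob, Tat and Cyp2e1 were all detected, with a summed level of 173335 to 202319 CPM in the frozen controls. In whole tissue, fewer cells of a type and less RNA per cell cannot be told apart. The frozen control library of animal 03 stood apart from the other controls, and the counts, class medians and gene lists for furan in frozen tissue are given with and without it where they differ in a call or in sign.

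The 250 bases before the start of 4 cytosolic members are printed because they hold a match to a stress-response motif or belong to a gene that furan changed in both frozen and 18 h tissue. They come from RefSeq, build GRCm38.p6, were matched by symbol, and run 5′ to 3′ on the gene's strand, so that the last base lies next to the start. Capitals mark 2 motifs. TGATGNAA, the ATF4 composite element, appears here on the opposite strand and so reads as its reverse complement. CACGTG, the E-box, is its own reverse complement. Tars lies at chr15:11399659-11399908 (minus strand), Gars at chr6:55037751-55038000 (plus), Iars at chr13:49681880-49682129 (plus) and Aars at chr8:111033592-111033841 (plus).
Tars: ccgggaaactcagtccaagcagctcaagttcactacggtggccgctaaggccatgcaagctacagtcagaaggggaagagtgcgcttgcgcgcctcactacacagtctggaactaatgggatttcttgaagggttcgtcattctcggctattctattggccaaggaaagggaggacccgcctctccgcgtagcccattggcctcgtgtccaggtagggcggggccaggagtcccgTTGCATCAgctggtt
Gars: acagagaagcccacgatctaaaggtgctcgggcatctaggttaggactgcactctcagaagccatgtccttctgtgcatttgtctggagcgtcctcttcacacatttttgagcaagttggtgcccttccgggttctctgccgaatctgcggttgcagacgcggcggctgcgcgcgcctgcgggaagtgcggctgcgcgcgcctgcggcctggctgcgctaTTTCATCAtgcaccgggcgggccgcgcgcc
Iars: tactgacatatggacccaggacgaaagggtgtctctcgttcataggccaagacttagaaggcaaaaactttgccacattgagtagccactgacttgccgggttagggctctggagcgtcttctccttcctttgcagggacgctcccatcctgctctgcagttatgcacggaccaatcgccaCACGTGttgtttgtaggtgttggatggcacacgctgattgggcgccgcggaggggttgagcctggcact
Aars: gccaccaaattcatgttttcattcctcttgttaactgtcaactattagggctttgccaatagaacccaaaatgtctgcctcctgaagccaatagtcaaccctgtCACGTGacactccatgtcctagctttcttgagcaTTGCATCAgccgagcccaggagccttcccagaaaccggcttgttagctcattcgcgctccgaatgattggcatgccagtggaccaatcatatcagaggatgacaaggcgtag
The ATF4 motif lay 15 to 8 bases before the start of Tars, 30 to 23 before Gars and 112 to 105 before Aars. The search covered promoter entries of 26 of the 35 members, 13 of each class. Cars, Hars, Lars, Nars, Rars, Vars, Wars, Hars2 and Pars2 were not searched, so the counts below say nothing about them. Lars, Nars and Rars were among the members called with furan after 18 h. With both strands searched over the same 250 bases, the motif matched in 3 of 13 cytosolic and 0 of 13 mitochondrial entries, against 3.45% of 32851 promoters. The E-box matched in Aars, Farsb and Iars, and in 6.02% of all promoters. A match is a description of letters, not a measured binding site.

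Per kilobase of transcript, the cytosolic enzymes were mostly the more abundant class in control frozen liver. Dars, the aspartate enzyme, was highest at 56.6 ± 9.27 CPM per kb (SD, n = 4). Next came Eprs, the fused enzyme for glutamate and proline, at 55.6 ± 4.00 CPM per kb and Nars, for asparagine, at 54.0 ± 4.01 CPM per kb, so that these neighbours did not differ beyond their spread. Wars, for tryptophan, was the lowest cytosolic member at 6.04 ± 1.49 CPM per kb. Among mitochondrial members, Iars2 (isoleucine) was highest at 18.6 ± 1.33 CPM per kb and Fars2 (phenylalanine) next at 18.4 ± 0.73 CPM per kb, again within their spread. Mars2 (methionine) was lowest at 0.46 ± 0.09 CPM per kb of a transcript of 11294 bases. Mars2 stayed lowest per kilobase of coding sequence, at 2.93 CPM, whereas Nars was then first at 88.4 CPM and Dars stood behind Aars at 81.9 CPM. By that measure Vars was the lowest cytosolic member at 8.52 CPM, below Farsa at 10.3 CPM and Wars at 11.9 CPM.

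In 13 of 15 pairs of enzymes for the same amino acid, the cytosolic gene had the higher level per kilobase in frozen control liver. The exceptions were Iars, at 0.61 times the level of Iars2, and Farsa, at 0.47 times the level of Fars2. Farsa encodes a subunit of the cytosolic phenylalanine enzyme. Farsb, the other subunit, was not paired and stood at 23.5 CPM per kb beside 18.4 for Fars2. Per kilobase of coding sequence these were 27.1 and 28.9 CPM. Eprs was paired with both Ears2 and Pars2. The same 2 pairs were the exceptions per kilobase of coding sequence, but the order of the gaps depended on the length used. Mars against Mars2 was 48.7-fold per kilobase of transcript and 8.23-fold per kilobase of coding sequence. Eprs against Pars2, the mitochondrial proline enzyme, was 33.1-fold and 18.0-fold, and Aars against Aars2 9.88-fold and 17.2-fold. Yars against Yars2 (tyrosine) was 1.31-fold and 2.02-fold, whereas Wars against Wars2 was 2.21-fold and 1.06-fold. Transcript lengths come from the mouse annotation GRCm38, and the 35 transcripts had a median length of 2962 bases and a median GC content of 51.4%.

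In fresh frozen liver, furan was followed by higher levels of 2 cytosolic and 1 mitochondrial synthetase gene, and no member was called lower. The called genes were Tars, Iars and Yars2, which charge threonine, isoleucine and, in mitochondria, tyrosine. They make 3 of 35 members, against 1.57% of all genes tested that were called higher and 1.2% called lower. Of the 20 cytosolic members, 18 had an estimate above 0, with a median log2 fold change of 0.20. The 15 mitochondrial members had a median of -0.02, and all genes tested had -0.01. Without control 03 the medians were 0.24 for the cytosolic and 0.09 for the mitochondrial class. In 10 members every furan library lay above every control library, as in 7.2% of all genes.

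Tars stood at 190, 138, 150 and 141 CPM in the frozen controls (animals 02, 03, 04 and 06) and at 290, 219, 218 and 225 CPM in the frozen furan libraries (41, 42, 43 and 44). All furan values were above all control values, and animal 41 was the highest. The fold change was 1.54 (log2 0.62 ± 0.14, adjusted p = 0.0405 by edgeR). Iars stood at 57.2, 44.4, 54.0 and 46.9 CPM in frozen controls and at 70.0, 70.9, 67.8 and 73.5 CPM with furan. The groups were again separate, at 1.4-fold (log2 0.48 ± 0.11, adjusted p = 0.0449 by edgeR). Yars2 stood at 19.7, 13.3, 14.6 and 16.9 CPM in frozen controls and at 25.8, 23.8, 23.1 and 27.7 CPM with furan. Its libraries did not overlap either, at 1.56-fold (log2 0.64 ± 0.14, adjusted p = 0.0379 by edgeR).

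Gars, Rars, Nars, Eprs, Farsa, Ears2 and Mars2 had the same separation of libraries in frozen tissue but did not pass the test. Gars (glycine) had a log2 fold change of 0.41 ± 0.11, Rars (arginine) 0.48 ± 0.14, Nars 0.32 ± 0.10, Eprs 0.28 ± 0.11, and Ears2, the mitochondrial glutamate enzyme, 0.39 ± 0.14. The adjusted p of these 5 by edgeR were 0.0856, 0.0915, 0.139, 0.189 and 0.175. The frozen calls rested on all but 2 of the libraries: without control 04 or 06, or without furan 41, 42, 43 or 44, no member passed, with 7 to 9 members at an unadjusted p below 0.05. Without control 03, 9 members were called higher and none lower, against 4.43% of all genes higher and 3.6% lower in that fit.

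**Figure D1:**
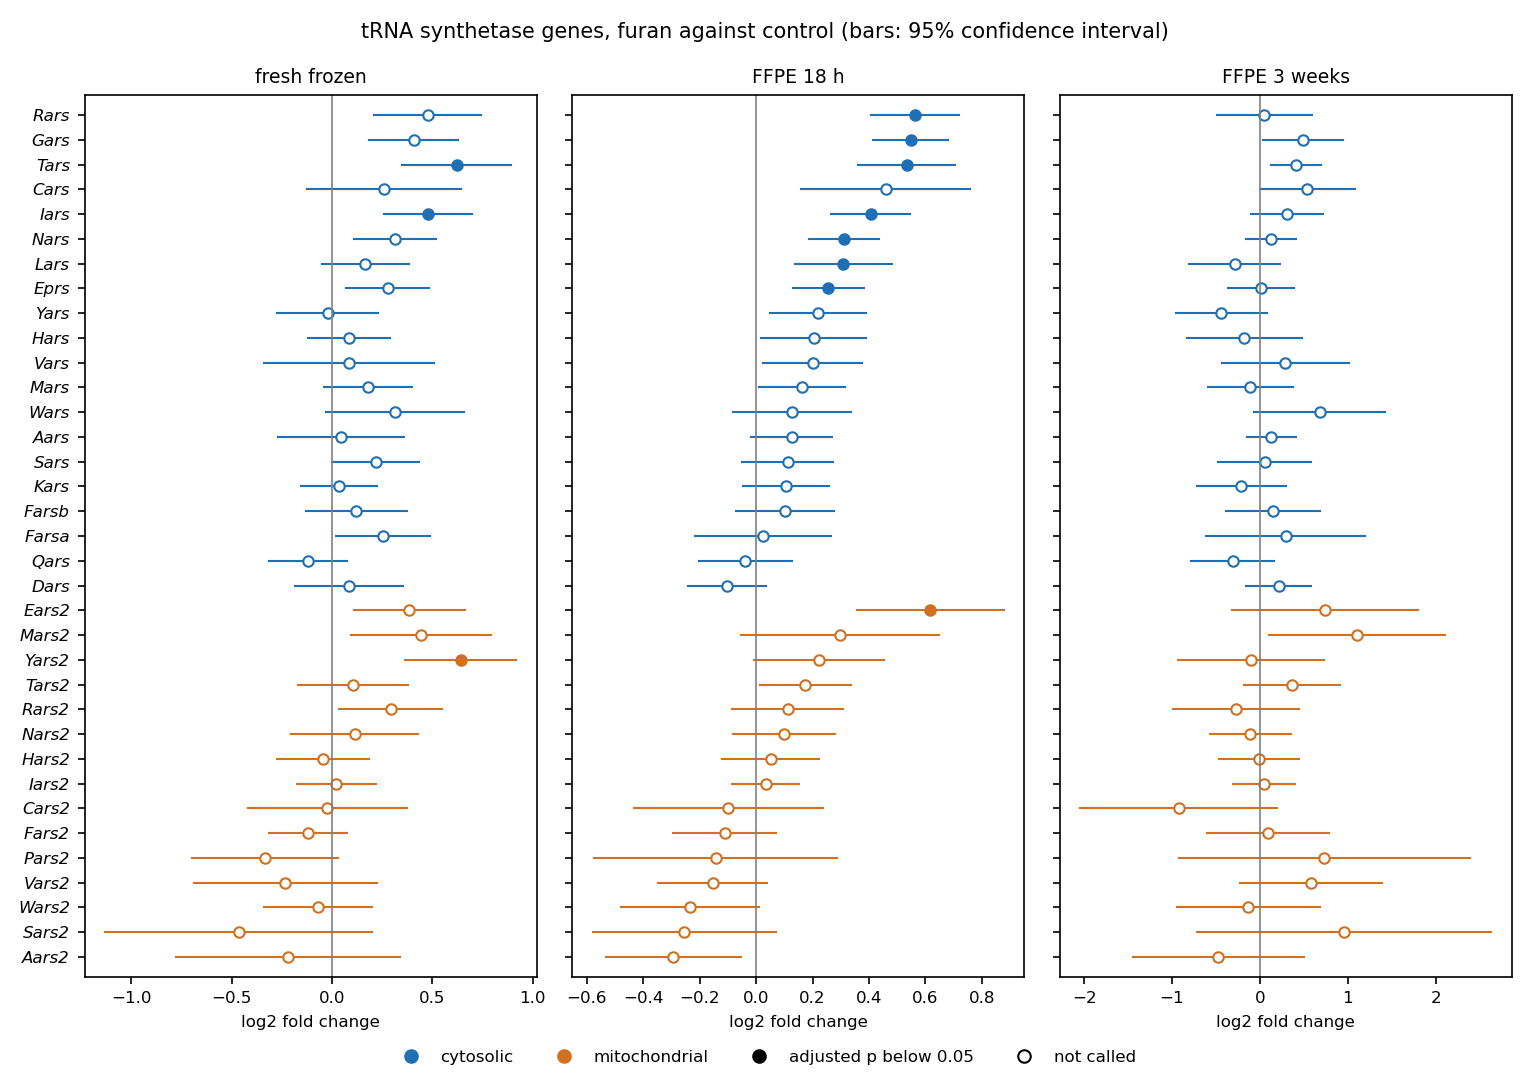
Log2 fold change of furan against control for the 35 members in each preservation, with approximate 95% confidence intervals. The horizontal scale differs between panels, filled points passed the test and colours mark the class. Filled points number 3 in frozen tissue, 8 after 18 h and 0 after 3 weeks, all to the right of 0.

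The library of control 03 differed from the other 3 frozen controls in a way that followed base composition, as other libraries did to a lesser extent. Its largest excesses were in Sars2 (2.61-fold), Aars2 (2.25-fold), Vars2 (2.01-fold), Vars (1.97-fold), Cars2 (1.73-fold) and Cars (1.72-fold), the serine, alanine, valine and cysteine enzymes. Its largest deficits were in Nars2, at 0.68 times, and Mars2, at 0.68 times the other controls. Across the 35 members, Spearman's rho between this difference and transcript GC content was 0.72, and across all genes it was 0.57. Measured the same way against the rest of their group, frozen control 02 gave -0.67 over the members and -0.51 over all genes. Frozen control 06 gave -0.64 and -0.37. The reference for both contains control 03, so a deviation of control 03 by itself pushes their values to the opposite sign. Values of libraries in the other groups depend on each other in the same way. The frozen furan libraries 41, 42 and 43 gave -0.55, 0.53 and 0.55 over the members and -0.17, 0.20 and 0.28 over all genes, and the 18 h furan library 43 gave 0.59 and 0.13. Genes of 1 library are not independent, so these are descriptions. The fixed pieces of the same liver gave 0.08 after 18 h and 0.20 after 3 weeks across the members.

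Vars shows the size of the deviation in 1 gene. It stood at 23.7, 51.2, 27.0 and 27.2 CPM in the frozen controls and at 30.8, 35.9, 37.4 and 32.6 CPM in frozen furan libraries. With all 8 libraries its log2 fold change was 0.09 ± 0.22. Without control 03 it was 0.40 ± 0.11 (adjusted p = 0.0327 by edgeR). Cars, Gars, Nars, Rars and Wars were the other members called in that fit and not with all 8 libraries by edgeR, with log2 fold changes of 0.49, 0.48, 0.32, 0.37 and 0.49. Tars, Iars and Yars2 were called in both fits. Leaving out control 03 changed the sign of the estimate in 8 members, none of them called in either fit: Dars, Yars, Aars2, Cars2, Iars2, Nars2, Sars2 and Vars2. Over the members, rho between the frozen furan effect and GC content was -0.36 with control 03 and 0.08 without it. Over all genes it was -0.32 with that library and -0.02 without it. For the furan effect after 18 h, rho with GC content was -0.24 over the members and -0.19 over all genes. After 3 weeks it was 0.12 and -0.05.

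**Figure D2:**
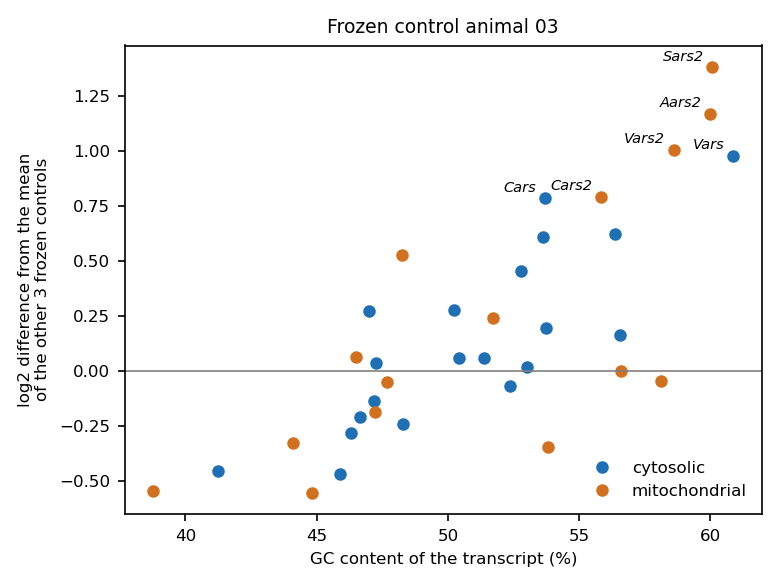
Each point is a member: transcript GC content in percent against the log2 difference of the frozen control library of animal 03 from the mean of the other 3 frozen controls, coloured by class. Sars2, Aars2, Vars2 and Vars, with 58.6 to 60.9% GC, lie highest, and Mars2, with 38.8%, is among the lowest.

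After 18 h of fixation, furan was followed by higher levels of 7 cytosolic members and 1 mitochondrial member, and again none was called lower. These 8 were Gars, Rars, Tars, Iars, Nars, Lars and Eprs and the mitochondrial Ears2. The share of members called higher was 22.9%, against 7.82% of all genes called higher and 7.72% called lower. The cytosolic class gave 35% (7 of 20) and a median log2 fold change of 0.20, the mitochondrial class 1 of 15 and a median of 0.03, and all genes a median of -0.0025. In 8 members all furan libraries lay above all controls, as in 9.59% of all genes. Tars and Iars were called in both preparations: they are 2 of the 3 frozen calls and 2 of the 8 calls after 18 h.

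Gars stood at 44.6, 44.5, 44.8 and 41.9 CPM in the 18 h controls and at 67.8, 64.3, 64.2 and 58.7 CPM with furan. The lowest furan library was well above the highest control, at 1.46-fold (log2 0.55 ± 0.07, adjusted p = 3.97e-05 by edgeR). Rars stood at 23.8, 24.8, 25.2 and 27.1 CPM in controls and at 35.8, 38.6, 35.8 and 37.9 CPM with furan, also without overlap. Its fold change was 1.48 (log2 0.56 ± 0.08, adjusted p = 0.000129 by edgeR). Tars stood at 99.8, 90.1, 93.5 and 78.1 CPM in controls and at 147, 140, 120 and 114 CPM with furan. The groups were separate, at 1.45-fold (log2 0.53 ± 0.09, adjusted p = 0.000703 by edgeR).

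Iars stood at 54.1, 44.8, 47.5 and 48.2 CPM in the 18 h controls and at 64.1, 62.8, 63.5 and 65.6 CPM with furan. The furan values were the tighter group, at 1.32-fold of control (log2 0.41 ± 0.07, adjusted p = 0.000836 by edgeR). Nars stood at 93.1, 82.9, 92.2 and 83.5 CPM in controls and at 108, 103, 114 and 109 CPM with furan. No library overlapped, at 1.24-fold (log2 0.31 ± 0.06, adjusted p = 0.00288 by edgeR). Lars, the leucine enzyme, stood at 36.6, 38.7, 35.3 and 36.3 CPM in controls and at 43.6, 53.2, 39.7 and 44.5 CPM with furan. Animal 42 was the highest, and the fold change was 1.24 (log2 0.31 ± 0.09, adjusted p = 0.0219 by edgeR).

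Eprs stood at 179, 184, 161 and 178 CPM in the 18 h controls and at 199, 218, 199 and 217 CPM with furan. The groups were close but separate, at 1.19-fold (log2 0.26 ± 0.06, adjusted p = 0.0107 by edgeR). Ears2 stood at 6.51, 6.78, 6.63 and 5.87 CPM in controls and at 9.52, 9.61, 9.60 and 10.6 CPM with furan. The groups were separate, at 1.53-fold (log2 0.62 ± 0.13, adjusted p = 0.00404 by edgeR). Yars2, called in frozen tissue, stood at 9.81, 11.2, 12.4 and 11.2 CPM in the 18 h controls and at 12.5, 11.9, 13.8 and 13.5 CPM with furan, with overlap and an adjusted p of 0.225 by edgeR. Aars2 had all furan libraries below all controls, at a log2 fold change of -0.29 ± 0.12, and did not pass the test (adjusted p = 0.119 by edgeR). When all 24 libraries shared 1 estimate of the spread, 2 members, Gars and Tars, were called after 18 h. Lars was not called (adjusted p 0.0501 to 0.09 by edgeR) without control 02 or 04 or without furan 42 or 44, nor was Eprs without control 04 (adjusted p = 0.0585 by edgeR).

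**Figure D3:**
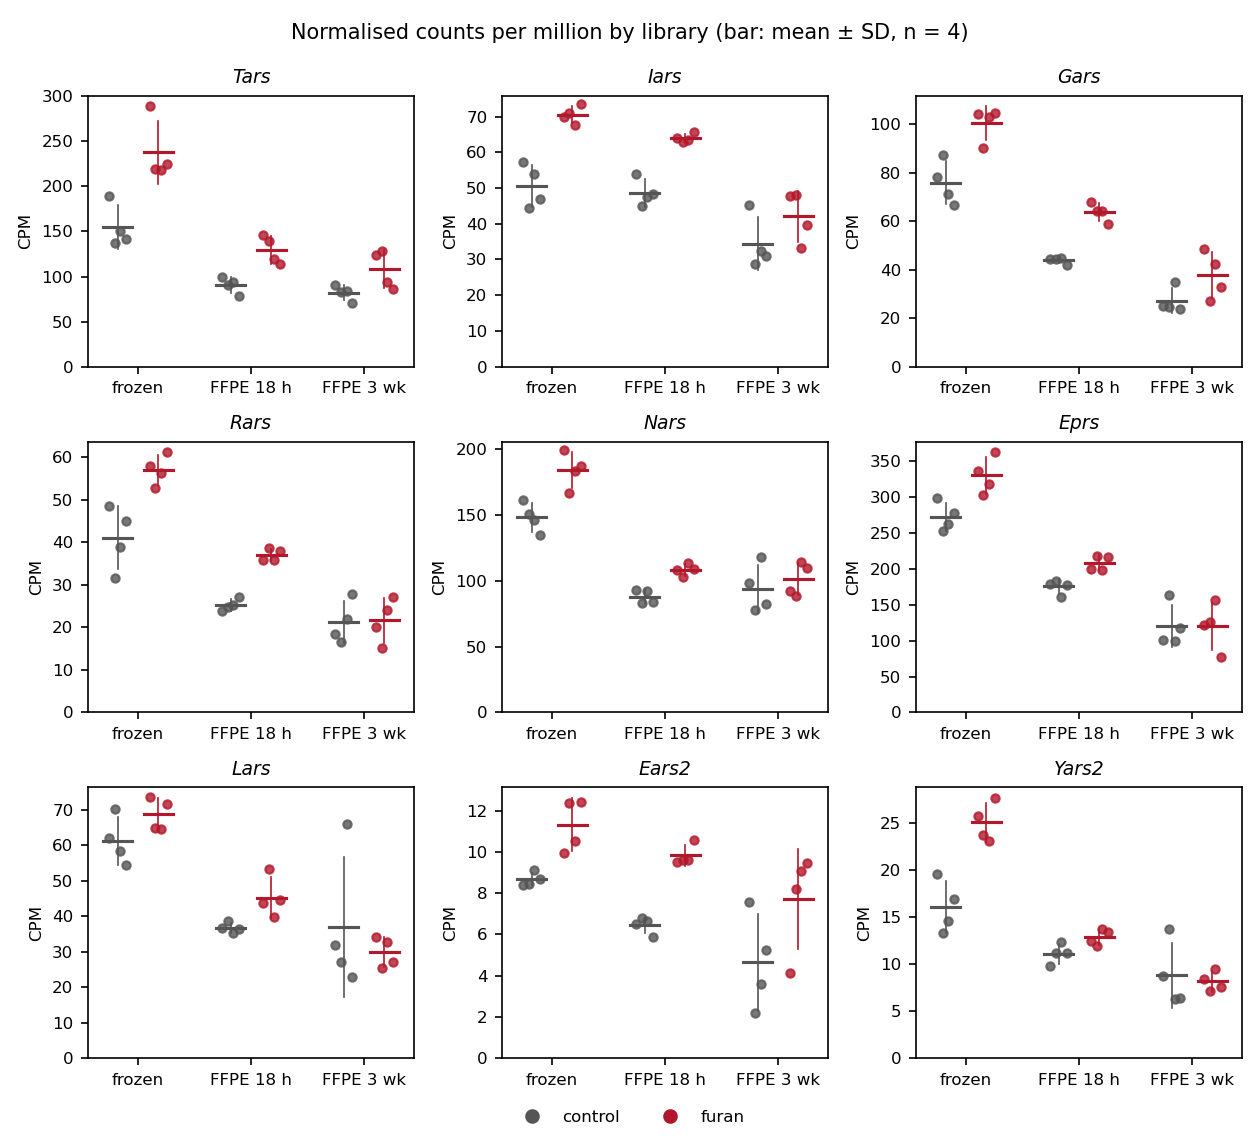
Levels in CPM of the 9 members called with furan in frozen or 18 h tissue, 1 point per library, with the mean (horizontal bar) and SD (vertical line) of 4 animals. Furan points lie above control points without overlap in frozen tissue for all but Lars, and after 18 h for all but Yars2, while after 3 weeks the groups overlap for all 9.

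After 3 weeks of fixation, no member passed edgeR's test, against 1.07% of all genes called higher and 1.51% called lower. Tars, Gars and Mars2 had an unadjusted p below 0.05, and DESeq2 called 0 members. Tars stood at 90.5, 83.3, 84.3 and 70.9 CPM in controls and at 124, 128, 93.4 and 86.5 CPM with furan, and only animal 44 fell within the control range. Its log2 fold change was 0.41 ± 0.15 (adjusted p = 0.162 by edgeR). Gars stood at 25.1, 24.7, 35.05 and 24.0 CPM in controls and at 48.5, 27.2, 42.2 and 32.9 CPM with furan, where control 04 overlapped with 2 furan libraries. The median log2 fold change was 0.13 for cytosolic members, 0.04 for mitochondrial members and 0.01 for all genes. In a fit over all 24 libraries 3 members were called higher: Gars, Wars and Mars2.

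The difference of the furan effect between preparations was itself tested, and no member was called in any of the 3 interactions, nor was any other gene (0% of all genes tested for 18 h minus frozen, 0% for 3 weeks minus frozen and 0% for 3 weeks minus 18 h, by edgeR; DESeq2 also called 0 members). At an unadjusted p below 0.05 there were 1, 2 and 2 members. Yars2 had a furan effect smaller by 0.40 ± 0.18 on the log2 scale after 18 h than in frozen tissue, and by 0.75 ± 0.36 after 3 weeks. Sars2 had an effect larger after 3 weeks than in frozen tissue, by 1.43 ± 0.63, and than after 18 h, by 1.22 ± 0.59. Yars had one smaller by 0.66 ± 0.26 after 3 weeks than after 18 h. The adjusted p were 0.784 or higher by edgeR.

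Roles within the family and its pathway were described from lists chosen with earlier results of these data known. A contrast between these lists is therefore a description and not an independent test. Of the 13 cytosolic enzymes listed as ATF4 targets, 2 rose with furan in frozen tissue (median log2 fold change 0.26) and 6 after 18 h (median 0.26, 13 of 13 estimates above 0). Of all genes, 1.57% were called higher in frozen tissue and 7.82% after 18 h, and these shares stand beside each count of furan calls that follows. Without control 03, against 4.43% of all genes, 7 of the 13 were called in frozen tissue, with a median of 0.32. The other 7 cytosolic enzymes were Dars, Farsa, Farsb, Hars, Kars, Qars and Rars. They had 0 called in frozen tissue (median 0.09) and 1, Rars, after 18 h (median 0.10). Without control 03, Rars was also called in frozen tissue, and the median of these 7 was 0.05. Outside the family, 3 of 25 tested ATF4 targets rose in frozen tissue: Atf3 (log2 fold change 2.57 ± 0.36, adjusted p = 0.00423), Atf4 itself (0.54 ± 0.09, adjusted p = 0.0122) and Psat1, a serine synthesis enzyme (1.37 ± 0.31, adjusted p = 0.0432), all by edgeR. Trib3, a pseudokinase that restrains ATF4, fell by 1.12 ± 0.23 (adjusted p = 0.0274 by edgeR), against 1.2% of all genes called lower. Without control 03, 6 of 26 tested ATF4 targets were called higher and 3 lower, against 4.43% and 3.6% of all genes in that fit. After 18 h, 7 of 26 rose and 1 fell, with Atf4 at 0.57 ± 0.07 (adjusted p = 2.82e-05 by edgeR) and the stress sensor Sesn2 at 1.30 ± 0.16 (adjusted p = 4.25e-05 by edgeR). The share of all genes called lower after 18 h was 7.72%. After 3 weeks 1 of 23 rose and none fell, against 1.07% and 1.51% of all genes.

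The 8 enzymes of the multisynthetase complex had 1 call with furan in frozen tissue, Iars, and 4 after 18 h: Eprs, Iars, Lars and Rars. The shares of all genes in frozen and 18 h tissue were 1.57% and 7.82% called higher, and 1.2% and 7.72% called lower. Without control 03 there were 2 in frozen tissue, Iars and Rars, against 4.43% of all genes called higher and 3.6% called lower in that fit. None of the 3 scaffold genes, Aimp1, Aimp2 and Eef1e1, was called with furan in any preparation by edgeR. Aimp1 had log2 fold changes of -0.05 ± 0.13 frozen and -0.02 ± 0.12 after 18 h, and Aimp2 0.27 ± 0.16 and 0.31 ± 0.16. Of the 4 genes of the GCN2 pathway, which senses uncharged tRNA, Eif2s1, the initiation factor subunit that GCN2 phosphorylates, rose after 18 h by 0.39 ± 0.10 (adjusted p = 0.0138 by edgeR), and none was called in frozen tissue. Among 19 tested genes of tRNA processing and export, 0 were called in frozen tissue, and 3 rose and 1 fell after 18 h. Without control 03, 1 was called higher and 1 lower in frozen tissue, against the same 4.43% and 3.6% of all genes. None of the 10 mitochondrial translation factors rose with furan, and 1 fell after 18 h.

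Estimates were set side by side for enzymes of the same amino acid, with no test within pairs. The cytosolic gene had the larger furan estimate in 12 of 15 pairs in frozen tissue, 12 of 15 after 18 h and 8 of 15 after 3 weeks, and in 12 of 15 in frozen tissue without control 03. Tars had log2 fold changes of 0.62 frozen and 0.53 after 18 h beside 0.10 and 0.17 for Tars2, and Iars 0.48 and 0.41 beside 0.02 and 0.03 for Iars2. The order was reversed in frozen tissue for 3 pairs: Yars at -0.02 beside Yars2 at 0.64, Mars at 0.18 beside Mars2 at 0.44, and Eprs at 0.28 beside Ears2 at 0.39. After 18 h Yars and Yars2 both stood at 0.22, and Eprs at 0.26 beside Ears2 at 0.62. Aars2, Sars2 and Vars2 had estimates of -0.22, -0.46 and -0.23 in frozen tissue, which turned to 0.16, 0.01 and 0.09 without control 03. After 18 h they stood at -0.29, -0.25 and -0.15, and none passed the test.

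As a summary per library, the median log2 level per kilobase of the cytosolic class was set against that of the mitochondrial class. In frozen controls the difference was 1.77 ± 0.41 (SD, n = 4), with animal 03 at 1.17 and the others between 1.88 and 2.10, and with furan it was 1.92 ± 0.08. Without control 03 the frozen control mean was 1.97. After 18 h it was 1.35 ± 0.03 in controls (1.31 to 1.38) and 1.67 ± 0.08 with furan (1.57 to 1.76), and the groups did not overlap. After 3 weeks it was 1.399 ± 0.72 in controls and 1.29 ± 0.30 with furan. The order of the 18 h groups depended on the measure: with coding length it turned to 1.14 in controls and 1.06 with furan. Taken as means over members, in which length cancels between groups, it was 1.52 to 1.66 in controls and 1.75 to 1.85 with furan.

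**Figure D4:**
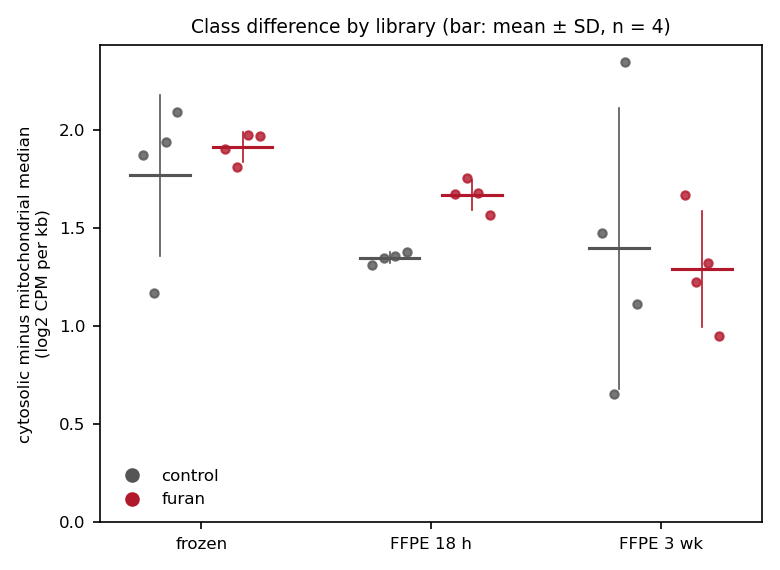
Difference between the cytosolic and the mitochondrial class in median log2 CPM per kb of transcript, 1 point per library, with the mean and SD of 4 animals. The 18 h controls and furan libraries are separate, control 03 is the low frozen point, and the 3-week controls spread from 0.66 to 2.35.

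Among markers of liver cell types other than hepatocytes, only sinusoidal endothelial genes were called with furan. The summed level of 5 sinusoidal endothelial markers (Stab2, Stab1, Clec4g, Lyve1 and Flt4), all detected, was 482 to 580 CPM in frozen controls and 377 to 412 CPM with furan. After 18 h it was 490 to 497 and 384 to 412 CPM. Of these 5 genes, 1 was called lower in frozen tissue and 4 after 18 h. Of all genes, 1.2% and 7.72% were called lower, and these shares also stand beside the hepatocyte counts below. The 5 Kupffer cell markers summed to 302 to 633 CPM in frozen controls and 319 to 353 CPM with furan, with 0 of 5 called by edgeR. The 6 hepatocyte markers summed to 173335 to 202319 and 182526 to 200809 CPM, with 1 called lower in frozen tissue and 2 after 18 h. Stellate cell markers summed to 515 to 712 CPM in frozen controls and 544 to 662 CPM with furan. The 4 bile duct markers stayed at or below 4.66 CPM and the 5 lymphocyte markers at or below 3.60 CPM in frozen tissue. The part of the cell types in the furan results was not tested.

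Fixation was followed by lower levels of most synthetase genes. After 18 h, 28 of 35 members were lower than in frozen pieces of the same livers and 0 were higher, against 27.3% of all genes called lower and 26.6% called higher. The cytosolic class had 18 of 20 lower with a median log2 fold change of -0.59, and the mitochondrial class 10 of 15 with a median of -0.34. All genes had a median of 0.01. These falls are relative to the other genes, and their size depends on the TMM scaling. The TMM factors were 0.786 to 0.868 in frozen controls, 1.03 to 1.04 in 18 h controls and 1.09 to 1.14 in 3-week controls. As a share of all counts, without that scaling, the 35 members made 0.156% to 0.178% in frozen controls. That share was 0.139% to 0.146% in 18 h controls and 0.107% to 0.117% in 3-week controls. In 26 members the fixed piece was lower in 8 of 8 animals, as in 19.5% of all genes, and in 12 members all 8 fixed libraries lay below all 8 frozen ones, as in 9.03% of all genes.

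Dars had the largest fall of the cytosolic class, from a median of 130 CPM in 8 frozen libraries (96.1 to 143) to 68.8 CPM after 18 h (60.4 to 75.4), with no overlap. The log2 fold change was -0.90 ± 0.08 (adjusted p = 1.86e-08 by edgeR). Hars, for histidine, followed, from 44.2 CPM (40.6 to 48.6) to 25.1 CPM (21.0 to 29.1), also without overlap, at -0.83 ± 0.07 (adjusted p = 5.51e-09 by edgeR). Of the mitochondrial class, Yars2 fell from a median of 21.4 CPM (13.3 to 27.7) to 12.2 CPM (9.81 to 13.8), at -0.75 ± 0.09 (adjusted p = 7.38e-07 by edgeR). Cars2 fell from 11.4 CPM (8.64 to 17.1) to 8.01 CPM (5.52 to 10.3), at -0.51 ± 0.14 (adjusted p = 0.0036 by edgeR). Both overlapped between groups, and each was lower in 8 of 8 animals. The members not called were Iars, Vars, Aars2, Mars2, Sars2, Vars2 and Wars2. Wars2 alone had an estimate above 0, at 0.18 ± 0.09.

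After 3 weeks, 30 of 35 members were lower than in frozen tissue and 0 higher, against 25.8% of all genes called lower and 23% called higher. All 20 cytosolic members were lower, with a median of -1.16, and 10 of 15 mitochondrial members, with a median of -0.87, while all genes had -0.02. In 15 members no library overlapped, as in 11.4% of all genes. Gars fell from a median of 88.7 CPM (66.8 to 105) to 30.0 CPM (24.0 to 48.5), to 0.37 times its frozen level, or -1.43 ± 0.12 on the log2 scale (adjusted p = 2.38e-10 by edgeR). Kars, for lysine, fell from 74.9 CPM (68.1 to 78.0) to 26.9 CPM (16.9 to 41.5), at -1.4 ± 0.14 (adjusted p = 4.24e-09 by edgeR). The libraries of both genes were separate. Gars and Kars are the members that serve both compartments.

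In the mitochondrial class Sars2 fell from a median of 7.09 CPM (4.62 to 17.0) in frozen tissue to 3.59 CPM (1.09 to 5.74) after 3 weeks, at -1.29 ± 0.32 (adjusted p = 0.00137 by edgeR). Yars2 fell to 8.01 CPM (6.29 to 13.8), at -1.22 ± 0.18 (adjusted p = 3.36e-06 by edgeR). Hars2, Mars2, Nars2, Pars2 and Wars2 were not called, with log2 fold changes of -0.22 ± 0.13, 0.19 ± 0.27, -0.10 ± 0.14, -0.44 ± 0.34 and -0.09 ± 0.23. Counts were few in this tissue for the scarce members, down to 13 counts in a control library for Pars2 and for Sars2.

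**Figure D5:**
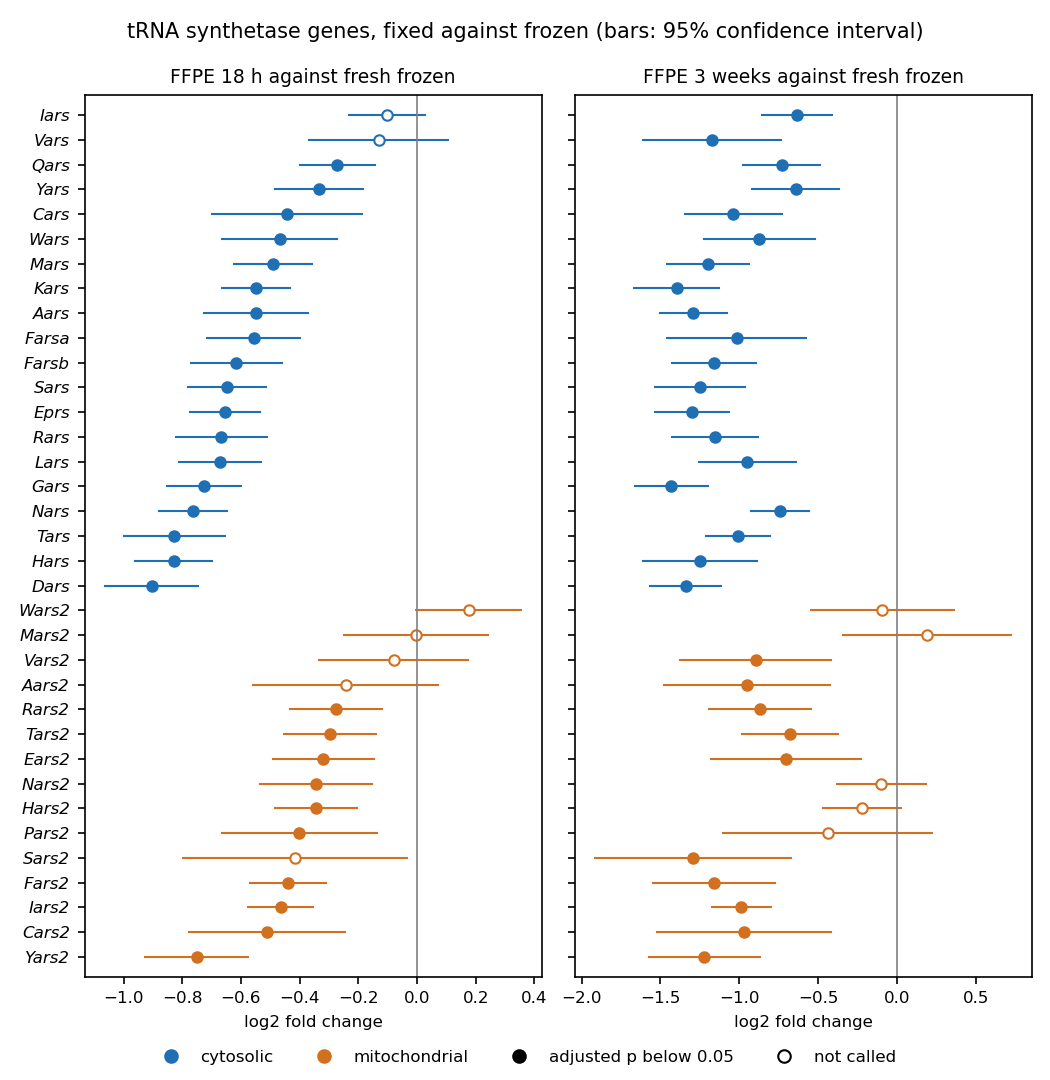
Log2 fold change of fixed against frozen tissue for the 35 members, 8 libraries against 8, with approximate 95% confidence intervals. Filled points passed the test, colours mark the class and the horizontal scale differs between panels. Estimates lie left of 0 for all members but Wars2 after 18 h and all but Mars2 after 3 weeks.

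Between the fixed tissues, 21 members were lower after 3 weeks than after 18 h, 13 of 20 cytosolic and 8 of 15 mitochondrial, and 0 were higher. Of all genes, 17.5% were called lower and 14.9% higher. Vars had the largest fall, from a median of 29.8 CPM (26.8 to 35.5) to 14.4 CPM (6.80 to 24.8), without overlap, at -1.05 ± 0.19 (adjusted p = 0.000143 by edgeR). Between frozen and 18 h tissue Vars had an estimate of -0.13 ± 0.12. Kars fell from 51.2 CPM (45.5 to 55.8) after 18 h to the 3-week level above, at -0.86 ± 0.13 (adjusted p = 1.15e-05 by edgeR). Vars2 fell from 19.8 CPM (18.0 to 22.7) to 11.5 CPM (2.86 to 20.4), at -0.83 ± 0.21 (adjusted p = 0.00339 by edgeR). Sars2 had -0.89 ± 0.30 (adjusted p = 0.0226 by edgeR), a call that was lost without animal 02, 03, 04, 43 or 44 (adjusted p 0.0508 to 0.0673). Nars, in contrast, had 0.01 ± 0.08 between the fixed tissues, after a fall of -0.76 ± 0.06 from frozen to 18 h tissue.

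Other genes around tRNA charging went both ways with fixation, and cell type markers moved as well. All 3 scaffold genes of the complex were called lower after 18 h (Aimp1 -0.90 ± 0.09, adjusted p = 1.01e-07 by edgeR) and after 3 weeks (Aimp1 -1.23 ± 0.27, adjusted p = 0.000753 by edgeR). Of 4 genes of the mitochondrial glutamine and formyl-methionine route, 1 was called higher and 2 lower after 18 h, and 1 higher and 1 lower after 3 weeks. The higher gene was Gatc, a subunit of the amidotransferase that makes glutaminyl-tRNA in mitochondria, at 0.32 ± 0.07 after 18 h (adjusted p = 0.000492 by edgeR) and 0.73 ± 0.13 after 3 weeks (adjusted p = 5.19e-05 by edgeR). The ATF4 targets outside the family had medians of -0.08 after 18 h and -0.02 after 3 weeks, with 6 and 5 of 26 called lower and 2 and 3 called higher. The shares of all genes called lower were 27.3% and 25.8%, and called higher 26.6% and 23%. The summed level of the 6 hepatocyte markers was 173335 to 202319 CPM in frozen controls, 115807 to 125428 after 18 h and 79577 to 87439 after 3 weeks, and 5 and 6 of the 6 were called lower. Sinusoidal endothelial markers had medians of -0.06 and -0.15, with 2 of 5 called lower in each. Kupffer cell markers had medians of -0.77 and -0.66, with 4 and 3 of 5 called lower. The part of these changes in the synthetase results was not tested.

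Transcript length and GC content also moved with the fixation estimates. Between 18 h and frozen tissue, Spearman's rho with length was 0.36 over the 35 members and 0.33 over all genes, so that shorter transcripts had the lower estimates. Between 3 weeks and 18 h, rho with GC content was -0.55 over the members and -0.35 over all genes. The mitochondrial class alone gave -0.69 and the cytosolic class -0.43. Between 18 h and frozen tissue, rho with GC content was 0.19 over the members and 0.11 over all genes, at 0.62 in the cytosolic and -0.26 in the mitochondrial class. These are correlations across genes, which share their libraries, and are descriptions.

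Some members share sequence with other genes, so their counts are less certain. Shares are of the 50-base words that also occur in any other gene, and the gene sharing the most is named. On the same strand, the share was 22.4% for Aars (Exosc6) and 8.61% for Iars (Gm4849). On the opposite strand, it was 36.6% for Iars2 (Rab3gap2), 17.8% for Cars2 (Naxd) and 10.1% for Farsb (Sgpp2). Hars and Hars2 shared the most with each other on opposite strands, where the shares were 7.53% and 4.44%. The strand setting of the counting is not given in the sources used here, so reads of such partners cannot be told apart.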

How the data were processed

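Gene counts of 24 libraries from 8 livers were analysed. The raw counts per gene symbol were deposited by the authors. The submitters' processing notes name CASAVA 1.8.2, STAR 2.3.0, featureCounts 1.4.4 and the genome build mm9. Strand setting and gene models are not given in the sources used here. Groups follow the sample labels.

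Counts were tested with edgeR 4.0.16 in R 4.3.3 (TMM, filterByExpr by group, robust quasi-likelihood fit, two-sided), with Benjamini-Hochberg adjustment over all genes tested and a threshold of 0.05. Furan and control libraries were compared separately in frozen, 18 h and 3-week tissue, and preservations over 8 libraries each. Interactions were fitted over both preservations. Same-numbered libraries come from the same animal, so the animal was used as a block in an alternative. Correlations of paired deviations were 0.0275 to 0.246 between frozen and 18 h tissue, 0.0245 to 0.0918 between frozen and 3-week tissue, and -0.00528 to 0.0818 between the fixed tissues.

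Alternatives were DESeq2 1.42.0 (test, and size factors alone), no low-count filter, thinning to 5560002 counts per library, 1 fit over all 24 libraries, and leaving out each library or animal. Coding length, and the gene lists and pairs without frozen control 03, were added after seeing the data. The procedure was tested on simulated data. The members and lists were chosen with earlier results of these data known. Every member could be named, with values per library for those called with furan and, for preservation, for the 2 largest changes per class in each direction. From other lists, up to 4 genes with the smallest p were named.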

Additional observations from a re-analysis of the deposited data

Results flagged for a closer look

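Among 102 sets of 4 libraries screened, 8 had a single library far from the other 3 by Dixon's criterion, and chance alone gives about 1 in 20. In frozen controls, animal 03 stood at 51.2 CPM for Vars and 37.0 CPM for Vars2. The 18 h piece of the same liver stood at 26.8 CPM for Vars and 22.7 CPM for Vars2. The 18 h control of animal 02 was low for Vars2, at 18.6 CPM.

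Tars was far above the other frozen furan libraries in animal 41, at 290 CPM. Gars was low in frozen furan animal 42, at 90.3 CPM, and in the 18 h control of animal 06, at 41.9 CPM. It was high in the 3-week control of animal 04, at 35.05 CPM. Ears2 was high in the 18 h furan library of animal 44, at 10.6 CPM.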

How the results depend on the processing

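The 3 furan calls in frozen tissue became 2 with DESeq2 size factors, without the low-count filter or in the fit over all 24 libraries, 5 with the DESeq2 test and 1 after thinning. Leaving out 1 library gave 0 to 9, with 0 without control 04 or 06 or any furan library and 9 without control 03. After 18 h the 8 calls became 9 with the DESeq2 test, 2 in the fit over all 24 libraries and 6 to 8 when 1 library was left out. Thinning kept the number at 8 but lost Ears2, the mitochondrial call (adjusted p = 0.0579), and added Cars. After 3 weeks the 0 calls became 3 in the fit over all 24 libraries and stayed 0 without any 1 library. With the animal as a block, 28, 30 and 25 members were lower in the preservation comparisons, against 28, 30 and 21 without the block, and the interactions gave 0 calls in both. Between 18 h and frozen tissue, the 28 became 25 after thinning and 23 in the fit over all 24 libraries. The mitochondrial calls among them went from 10 to 7 and 5. Between 3 weeks and frozen tissue the number stayed at 30 in both. Between 3 weeks and 18 h, the 21 became 18 after thinning, with Nars2 called higher, and 25 in the fit over all 24 libraries. Alternatives for single members were followed only for members called or named in a comparison (3 frozen, 8 after 18 h and 4 in each preservation comparison), and none of those changed direction. In frozen tissue 8 members that were not called changed sign without control 03.

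The class difference was 1.59 in 18 h controls, 1.799 in 18 h furan and 2.03 in frozen furan libraries as a mean over members, and 1.24, 1.57 and 1.75 without Gars and Kars. With coding length, tried after seeing the data, it was 1.14, 1.06 and 1.47 in those groups, 1.27 in frozen controls and 0.97 in 3-week furan libraries. Where values moved, the cause was not tested. With 5560002 to 11019297 counts, the 3-week libraries give few reads for scarce members, and 4 animals per group limit every furan comparison.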
